A study of Arabidopsis thaliana with 36 samples.

Results

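The bends of *puchi-1* roots at 24 hpg (hours post gravistimulation) were compared with WT bends harvested 6 h earlier, at 18 hpg, to see which transcripts of the mutant primordium differed from those of a younger WT primordium. The comparison used 6 of the 36 libraries of the series, 3 of *puchi-1* at 24 hpg and 3 of the WT at 18 hpg, and covered 25889 genes. The WT was *Arabidopsis thaliana* Col-0, and *puchi-1* is a mutant line of the AP2/ERF transcription factor gene *PUCHI* in that accession. Seedlings were turned to induce a lateral root primordium (LRP) at the bend, and each library was made from the bends of many pooled seedlings grown in continuous light. A bend holds the primordium together with the overlying endodermis, cortex, and epidermis and the underlying vasculature, so that fewer cells of a type and less RNA per cell cannot be told apart. Genotype and 6 h of development differ between the groups at once and cannot be told apart within the comparison. For some genes the WT at 24 hpg and *puchi-1* at 18 hpg (3 libraries each) are therefore given beside it.

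Total counts were 39.05, 48.63, and 47.78 M (1e+06 reads) in WT 18 hpg replicates 1 to 3, and 84.49, 56.96, and 43.85 M in *puchi-1* 24 hpg replicates 1 to 3. The titles of WT 18 hpg replicate 1 and *puchi-1* 24 hpg replicate 2 carry a date in March, and what the dates mark is not stated. WT 18 hpg replicates 2 and 3 are dated June and July, and *puchi-1* 24 hpg replicates 1 and 3 are undated. Outside March, title date and group therefore cannot be told apart. Across 19094 genes, the deviations of the March libraries from their group means were correlated (r = 0.74, a description), against -0.61 to 0.53 for the other pairs taken across the groups. The 6 genes of the touch and handling list, such as *TCH3* and *WRKY33*, had a mean of 3.43 log2 CPM (reads of a gene per 1e+06 reads) in the March library of the WT and 6.51 and 6.91 in the others. In *puchi-1* the same mean was 2.59 in the March library and 5.63 and 5.64 in the others. Since each group holds 1 such library, the counts below are also given without both.

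PUCHI acts early in the LRP, where it limits divisions and takes part in the control of very-long-chain fatty acid (VLCFA) synthesis. As a WT primordium grows, its founder cells divide, an auxin maximum forms at the tip, and genes of the root stem cell niche are switched on. The outer layer acquires a protective cuticle made of cutin and wax, and SHI/STY zinc finger proteins and PLETHORA (PLT) proteins act in organ patterning and meristem formation.

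Of 25889 genes, 118 (0.456%) were called, that is, passed an adjusted p under 0.05 (edgeR quasi-likelihood, Benjamini-Hochberg) with a log2FC beyond 1 or -1. Of these, 57 (0.22%) were higher and 61 (0.236%) lower in *puchi-1* at 24 hpg than in the WT at 18 hpg. With no limit on fold, 318 genes passed (1.23%), 206 of them higher (0.796%) and 112 lower (0.433%). The median log2FC of all genes was -0.00712, and the median size of a log2FC was 0.25. All 118 called genes had 3 *puchi-1* libraries on one side of the 3 WT libraries, as did 31.5% of all genes tested. For comparison, 105 genes were called between the genotypes at 24 hpg and 58 at 18 hpg, whereas edgeR called 0 between 18 and 24 hpg in the WT and 0 in *puchi-1* (800 and 405 genes had an unadjusted p under 0.05 and a log2FC beyond the limit). Between 48 and 65 genes were called when any 1 of the 6 libraries was left out, and 28 of the 118 were called in every such fit. Without both March libraries 18 genes were called, and of the 47 named genes that passed 11 still did (*PHT2;1*, *CER3*, *PRP4*, *CRF1*, *PLT5*, *EXLB1*, *AUX1*, *SADHU3-2*, *CKX6*, *IAA13*, and *PIN3*). With those libraries kept, 477 genes were called when the fit held the 30 bend libraries only.

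**Figure D1:**
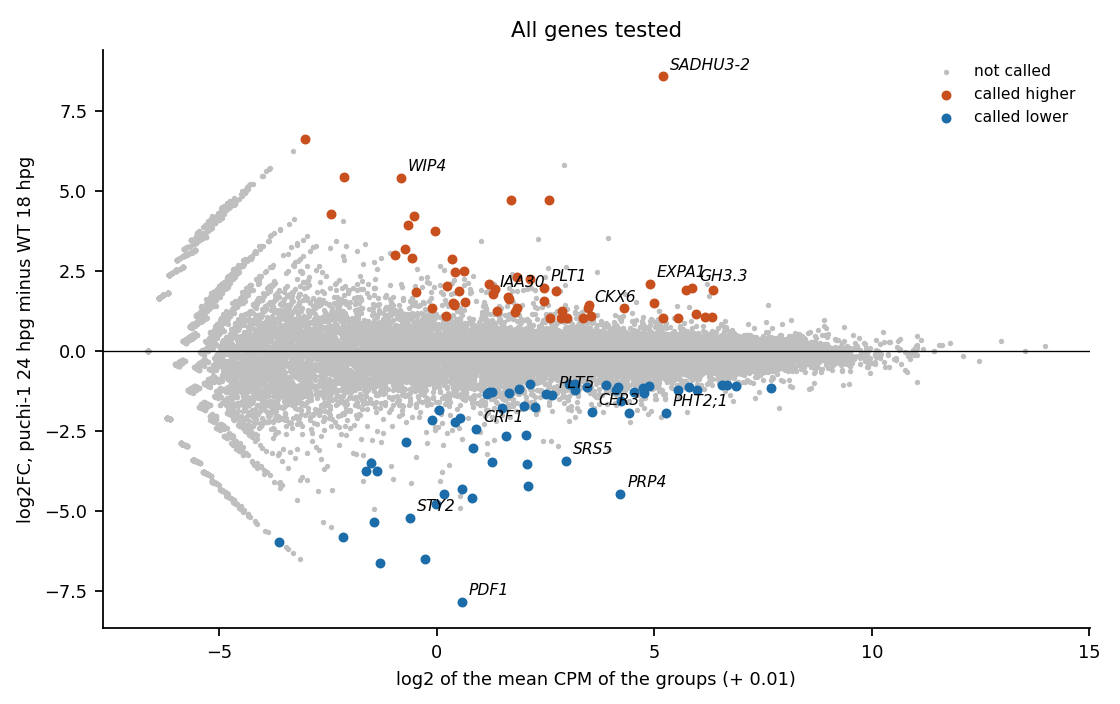
Each point is 1 of the 25889 genes tested, with the log2 of its mean CPM over the 2 groups (0.01 added) on the x axis and the log2FC of *puchi-1* 24 hpg relative to WT 18 hpg on the y axis. The 57 genes called higher are orange and the 61 called lower are blue, and *SADHU3-2* and *PDF1* mark the extremes of the called genes.

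The place of *puchi-1* 24 hpg along WT development was read from genes that were called between the WT at 36 and 12 hpg, libraries that the comparison does not use. The 1601 genes that rose in the WT over that time had a mean of 0.49, 0.77, and 0.69 log2 CPM in WT 18 hpg replicates 1 to 3, and 1.0, 0.79, and 1.14 in *puchi-1* 24 hpg replicates 1 to 3, with no overlap. In the WT at 24 hpg they stood at 1.33, 1.35, and 1.42, above each *puchi-1* 24 hpg library. Their median log2FC was 0.32 relative to the WT at 18 hpg and -0.26 relative to the WT at 24 hpg, against a step of 0.60 in the WT itself. The 1639 genes that fell in the WT stood at 3.4, 3.2, and 3.3 log2 CPM in WT 18 hpg and at 2.8, 2.8, and 2.7 in *puchi-1* 24 hpg. The WT at 24 hpg overlapped the latter, with 2.6, 2.8, and 2.8. Their median log2FC was -0.50 relative to the WT at 18 hpg and -0.01 relative to the WT at 24 hpg. The rising genes of *puchi-1* at 24 hpg thus lay between the WT levels of 18 and 24 hpg, and the falling genes at the WT level of 24 hpg.

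**Figure D2:**
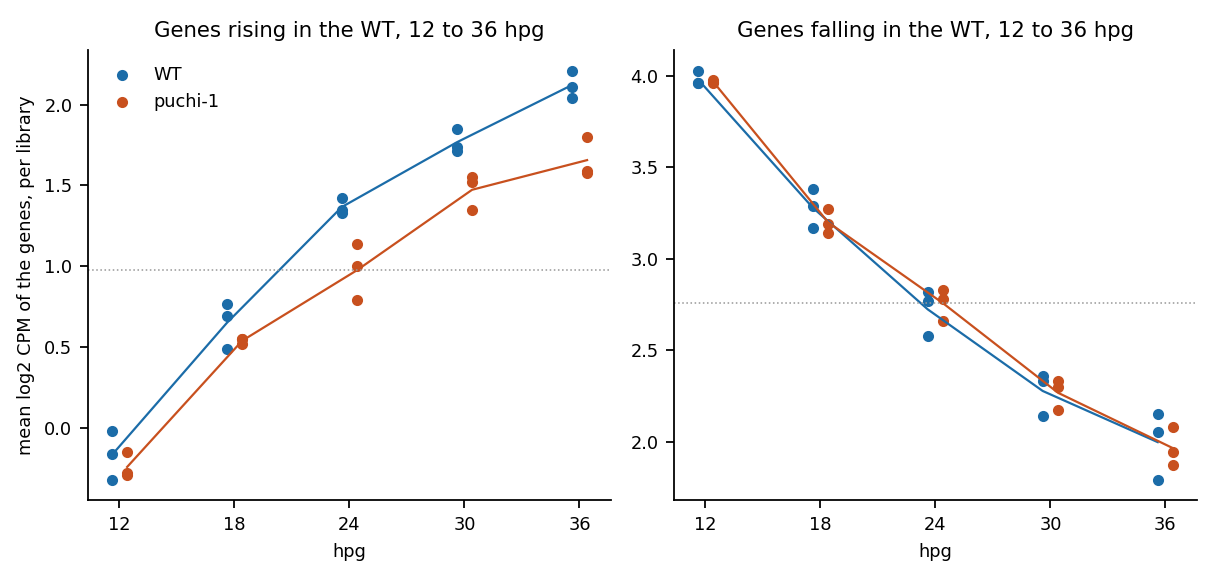
Mean log2 CPM per library (points) of the genes that rose (left, 1601) or fell (right, 1639) from 12 to 36 hpg in the WT, against hpg, with WT in blue and *puchi-1* in orange. Lines join group means, and the dotted line is the mean of *puchi-1* at 24 hpg, which crosses the WT line between 18 and 24 hpg for the rising genes and near 24 hpg for the falling genes.

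The called genes were then split by this WT course. Of the rising genes 50 were called (3.12%), 31 higher and 19 lower than in the WT at 18 hpg. Of the falling genes 13 were called (0.793%), 2 higher and 11 lower. Another 55 (0.243% of the 22649 genes outside both sets) were called, 24 higher and 31 lower. The 19 rising genes that were lower thus stood in *puchi-1* bends at 24 hpg below WT bends harvested 6 h earlier. Some of them, such as *CER3*, *PRP4*, and *SRS5*, lay below all 15 WT bend libraries, those of 12 hpg included. Others, such as *ABCG11* and *PDF1*, lay within the range of these libraries.

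*PUCHI* mRNA (AT5G18560, chromosome 5, 6164526 to 6166040 of TAIR10.1) was counted in both groups. It stood at 15.9, 14.5, and 19.7 CPM in the WT at 18 hpg and at 28.7, 30.2, and 31.0 CPM in *puchi-1* at 24 hpg. The 3 mutant libraries lay above all 15 WT bend libraries. The log2FC was 0.84 (standard error 0.19, adjusted p = 0.0235), and the adjusted p ranged from 0.0324 to 0.118 when 1 library was left out, passing only without WT replicate 3. A count per gene does not tell an intact transcript from a disrupted one.

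Genes of the plant surface were described by lists of wax, cutin, VLCFA, and suberin genes. The wax list, which holds alkane synthesis and lipid export genes, had 9 genes tested, of which 2 passed, both lower, and all 9 had a log2FC below 0. Its median log2FC was -1.91, beside -0.00712 for all genes, and -2.73 relative to the WT at 24 hpg. In the cutin list 3 of 16 genes passed, all lower (median log2FC -0.35), and in the VLCFA elongation list 1 of 19 passed, lower (median -0.31). The suberin list, whose 12 genes build the barrier polymer of endodermis and wounds, had 0 genes that passed (edgeR) and a median of -0.17.

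*CER3* (AT5G57800, chromosome 5, 23420184 to 23424117), needed to make the alkanes of wax, had 14.4, 22.2, and 19.6 CPM in the WT at 18 hpg and 5.4, 5.52, and 4.02 CPM in *puchi-1* at 24 hpg. All 3 mutant libraries lay below the lowest of the 15 WT bend libraries, 7.83 CPM. The log2FC was -1.91 (standard error 0.24, adjusted p = 5.08e-05), and it passed in each fit without 1 library and without both March libraries. At 24 hpg the WT had 40.2, 29.0, and 30.2 CPM, whereas *puchi-1* at 18 hpg had 6.13, 3.92, and 5.26 CPM, close to its level 6 h later.

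*ABCG11*, a transporter that exports cuticular lipids, was found at 2.61, 5.59, and 4.93 CPM in the WT against 0.478, 0.373, and 0.318 CPM (log2FC = -3.46, standard error 0.71, adjusted p = 0.011). *CYP77B1*, a cytochrome P450 of the cutin list, was found at 1.1, 4.66, and 2.76 CPM against 0.143, 0.0847, and 0.204 CPM (log2FC = -4.31, standard error 0.80, adjusted p = 0.00702). In both genes the groups did not overlap, as in all 118 called genes, and the March library of the WT was the lowest of its group. In the WT at 24 hpg *ABCG11* and *CYP77B1* averaged 10.7 and 9.23 CPM, and in *puchi-1* at 18 hpg 0.146 and 0 CPM. *KCS8*, a condensing enzyme of VLCFA elongation, had 2.56, 4.26, and 3.2 CPM in the WT against 0.239, 0, and 0.159 CPM (log2FC = -4.58, adjusted p = 0.00748). *BDG*, which is needed for an intact cuticle, passed with a log2FC of -3.76 (adjusted p = 0.0327), and *DCR*, an acyltransferase of cutin assembly, with -1.30 (adjusted p = 0.019). *ABCG11* lost its pass without any 1 of the 3 *puchi-1* libraries (adjusted p up to 0.0703), *CYP77B1* without *puchi-1* replicate 1 or 2 (up to 0.0586), *DCR* without any of 5 libraries (all but WT replicate 1, up to 0.149), and *BDG* without any of the 6 (up to 0.16). *KCS8* passed in all 6 such fits (adjusted p up to 0.0497) but not without both March libraries (0.0975).

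*PDF1*, a marker of the outermost cell layer, had 405 reads over the 3 WT libraries and 2 reads over the 3 *puchi-1* libraries. Scaled by library size, the WT level was 288 times that of *puchi-1*, with an exact (Clopper-Pearson) 95% interval from 79.3 to 2390, which covers counting error only. It stood at 0.835, 4.41, and 3.61 CPM in the WT at 18 hpg and at 30.5, 16.5, and 21.8 CPM at 24 hpg. The adjusted p was 0.0135, and between 0.0159 and 0.0917 without 1 library, failing without WT replicate 2 or any *puchi-1* library. Of the other 12 genes of the protoderm and HD-ZIP IV list 0 passed (edgeR), *ATML1* having 6 reads in the WT against 3 in the mutant and *PDF2* 24 against 3. *PRP4*, a proline-rich cell wall protein, had 27.1, 47.9, and 32.0 CPM against 1.76, 0.78, and 2.38 CPM (log2FC = -4.45, standard error 0.59, adjusted p = 0.000122). *CAD9*, a gene of the cinnamyl alcohol dehydrogenase family, had 3.99, 12.8, and 7.73 CPM against 0.753, 0.305, and 0.159 CPM (log2FC = -4.23, adjusted p = 0.00905, lost without *puchi-1* replicate 2 or 3, up to 0.0691). *PRP4* lay below the lowest WT bend library of any time (6.1 CPM), whereas *CAD9* and *PDF1* lay within the range of the 15 WT bend libraries.

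Sequences upstream of the annotated starts of the called genes were searched for 7 short motifs on both strands, in windows of 250 bases read from TAIR10.1. The L1 box, a protoderm promoter element, was searched as TAAATGCA and TAAATGTA. TAAATGCA was found in 3 of 61 windows of genes called lower (4.92%) and 2 of 57 of genes called higher (3.51%), beside 1.45% of 25860 windows of all genes tested. TAAATGTA was found in 1.64% of the lower, 1.75% of the higher, and 2.85% of all windows. The windows of *ABCG11* and *CYP77B1* are shown because they are the cuticle genes among the called genes that hold the element, and capitals mark TAAATGCA and TAAATGTA. They span chr1:6142152-6142401 (plus strand) and chr1:3901700-3901949 (plus strand).
ABCG11: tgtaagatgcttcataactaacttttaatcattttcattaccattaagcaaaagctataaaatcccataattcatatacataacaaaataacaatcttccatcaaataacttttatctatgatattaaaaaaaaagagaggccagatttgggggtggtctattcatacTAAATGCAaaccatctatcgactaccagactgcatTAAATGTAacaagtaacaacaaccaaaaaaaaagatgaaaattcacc
CYP77B1: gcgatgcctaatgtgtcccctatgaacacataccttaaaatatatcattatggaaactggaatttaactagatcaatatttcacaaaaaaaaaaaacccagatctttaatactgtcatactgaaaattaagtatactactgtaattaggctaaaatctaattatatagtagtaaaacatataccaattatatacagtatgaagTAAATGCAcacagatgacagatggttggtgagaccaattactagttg
A match is a description of these letters, not of a bound site. GCCGCC, the core of the GCC box read by ERF proteins, was found in 1 of the 61 lower windows and 0 of the 57 higher windows, beside 2% of all windows.

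Of 9 SHI/STY genes, which encode zinc finger activators of auxin synthesis genes, 3 passed, all lower, and the median log2FC was -1.40. *SRS5* (AT1G75520) had 12.9, 15.5, and 14.7 CPM in the WT at 18 hpg against 1.26, 0.949, and 1.79 CPM for the mutant at 24 hpg (log2FC = -3.44, standard error 0.57, adjusted p = 0.00228). It averaged 25.1 CPM in the WT at 24 hpg and 0.496 CPM in *puchi-1* at 18 hpg. *STY2* had 1.1, 1.8, and 0.876 CPM against 0.0359, 0.0339, and 0.0227 CPM (log2FC = -5.21, adjusted p = 0.00459). *SHI* had 3.0, 1.76, and 1.8 CPM against 0.49, 0.508, and 0.386 CPM (log2FC = -2.23, adjusted p = 0.0419, lost without any 1 of the 6 libraries, up to 0.151). All 3 genes lay below the 15 WT bend libraries, and without both March libraries *SRS5* and *STY2* did not pass (0.0682 and 0.0854). The relatives *LRP1* and *SRS6* were at a log2FC of 0.10 and 0.26 (adjusted p = 0.883 and 0.296), neither passing.

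Another group of genes differed from the WT at 18 hpg with little difference between the WT at 18 and 24 hpg. *PHT2;1* (AT3G26570, chromosome 3, 9756007 to 9758701), a plastid phosphate transporter gene, had the lowest p among the genes called lower. It stood at 67.9, 58.2, and 56.2 CPM in the WT at 18 hpg against 16.4, 17.8, and 13.7 CPM for the mutant at 24 hpg (log2FC = -1.93, standard error 0.16, adjusted p = 3.43e-08). The WT at 24 hpg had 66.7, 62.5, and 61.7 CPM and *puchi-1* at 18 hpg 17, 12.2, and 10.7 CPM, and the mutant lay below the lowest of the 15 WT bend libraries (51.1 CPM). *PAP17*, an acid phosphatase gene, passed as the other of 2 among 8 phosphate genes (log2FC = -1.09, adjusted p = 0.0057, and 0.051 without *puchi-1* replicate 1). The list had a median of -0.51, and the starvation markers *SPX1* and *SPX3* had -0.72 and -0.92 (adjusted p = 0.17 and 0.511).

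*CRF1* (AT4G11140, chromosome 4, 6794630 to 6796398), a cytokinin response factor of the AP2/ERF family, was the 1 of 6 *CRF* genes that passed. It had 2.9, 3.47, and 3.09 CPM in the WT at 18 hpg and 0.574, 0.593, and 0.59 CPM in *puchi-1* at 24 hpg, with no overlap with any WT bend library. Its log2FC was -2.42 (standard error 0.37, adjusted p = 0.000939), and the other 5 *CRF* genes had a log2FC from -0.06 to 0.64. *EXLB1*, an expansin-like gene, had 31.4, 36.0, and 30.7 CPM against 12.6, 17.9, and 9.9 CPM (log2FC = -1.27, adjusted p = 0.00391). *LBD16*, which acts in founder cells downstream of auxin response factors, had 13.7, 11.9, and 14.6 CPM against 6.81, 7.03, and 8.08 CPM (log2FC = -0.87, adjusted p = 0.0237). *LBD16* lost its pass without any of 5 libraries (all but WT replicate 2, up to 0.12).

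The 6 PLETHORA genes, regulators of meristem formation, did not share a direction. *PLT5* (AT5G57390) had 9.16, 9.41, and 8.5 CPM in the WT at 18 hpg against 3.71, 3.85, and 2.93 CPM for the mutant at 24 hpg (log2FC = -1.37, standard error 0.22, adjusted p = 0.00162). *PLT1* (AT3G20840) had 2.53, 1.91, and 2.28 CPM against 7.77, 9.51, and 9.13 CPM (log2FC = 1.97, standard error 0.45, adjusted p = 0.0231). The mutant libraries lay below all 15 WT bend libraries for *PLT5* and above them for *PLT1*, whose highest WT level was 6.2 CPM. *PLT4* (*BBM*) went from 1.25, 0.53, and 1.07 CPM to 3.67, 4.34, and 4.09 CPM, with a log2FC of 2.09 that did not pass (adjusted p = 0.0848, and 1.14e-08 to 0.338 over 18 alternatives, of which 6 passed). *PLT2*, *PLT3*, and *PLT7* did not pass, with a log2FC of 0.67, 0.35, and -0.81. The call of *PLT1* was lost without any 1 of the 6 libraries (adjusted p from 0.053 to 0.108) and without both March libraries (0.203), with a log2FC of 1.87 to 2.07. *PLT5* passed in all these fits.

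**Figure D3:**
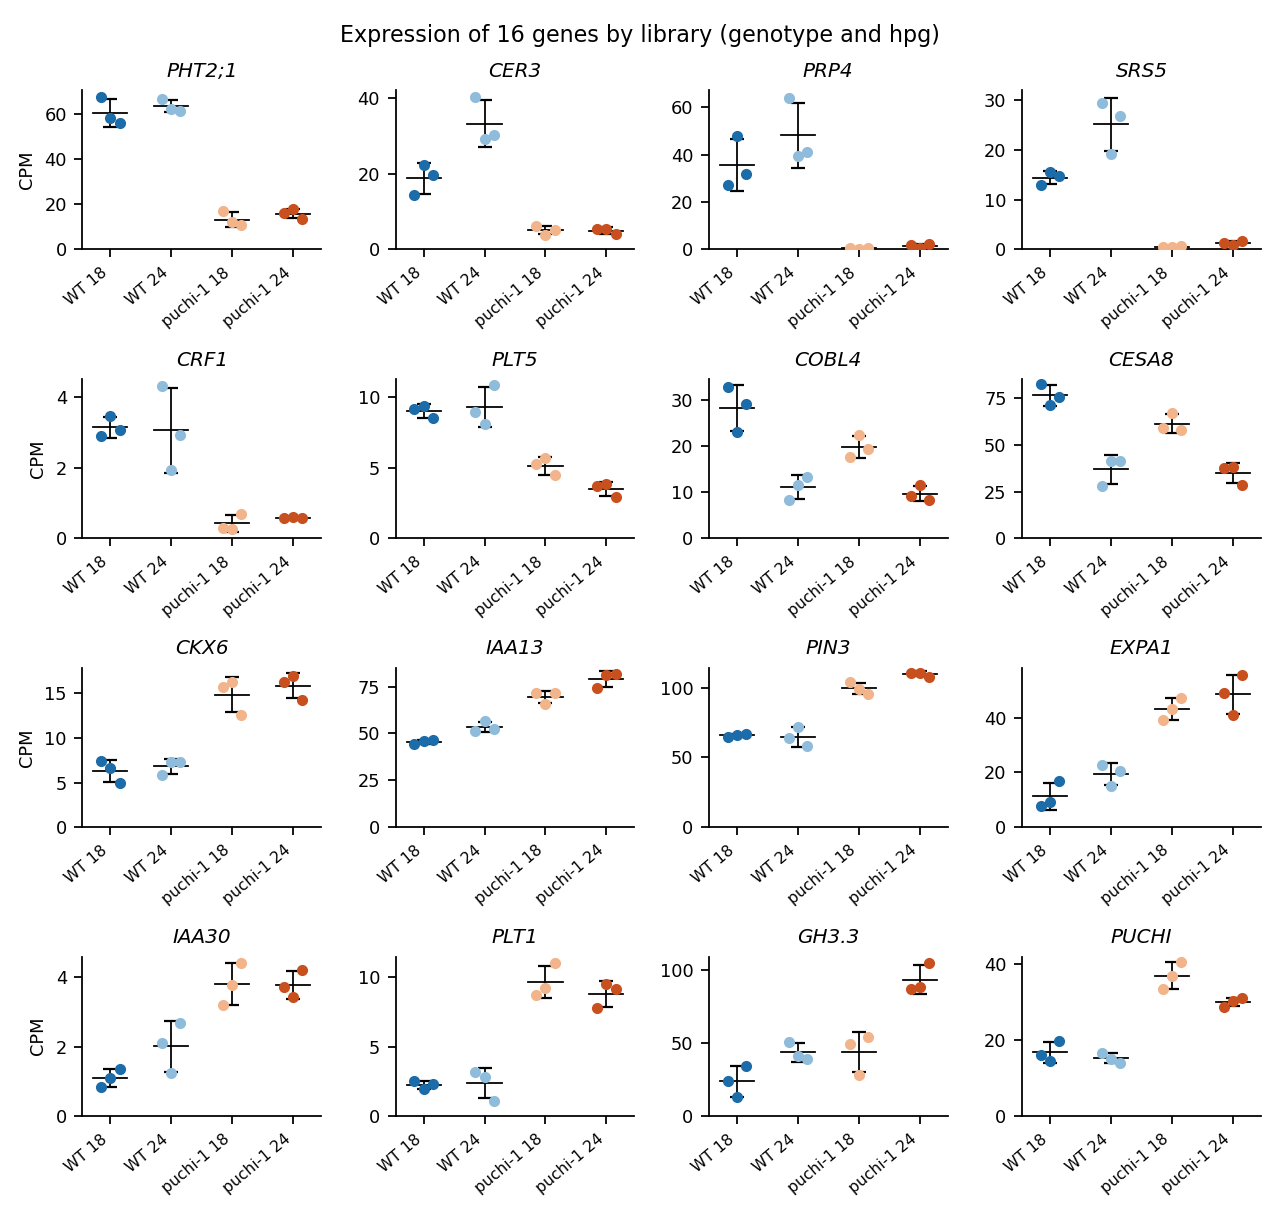
CPM of 16 genes in each library (points) of the WT and *puchi-1* at 18 and 24 hpg, with the mean (line) and SD (bars) of 3 libraries per group, on axes that start at 0. *PHT2;1*, *CRF1*, and *CKX6* differ between genotypes at both times, *COBL4* and *CESA8* sit lower at 24 than at 18 hpg in both genotypes, and *CER3* and *SRS5* are highest in the WT at 24 hpg.

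In the list of the stem cell niche and QC (quiescent centre) 2 of 12 genes passed, both higher, and 1 of them was called. *WIP4*, a zinc finger gene that acts with its relatives in forming the distal root, had 3 reads over the WT libraries and 191 over the *puchi-1* libraries. Scaled by library size, the level in *puchi-1* was 44.7 times that of the WT (exact 95% interval 15.1 to 219, counting error only, adjusted p = 0.00303, and 0.0725 without both March libraries). *SHR*, a radial patterning regulator, was the other gene that passed, with 27.8, 30.5, and 27.2 CPM against 40.5, 41.9, and 40.9 CPM (log2FC = 0.53, adjusted p = 0.0105). The QC gene *WOX5* did not pass, with 2.58, 2.48, and 2.72 CPM against 2.53, 3.46, and 3.54 CPM (log2FC = 0.29, standard error 0.25, adjusted p = 0.561). The median of the list was 0.55. *SHR* lost its pass without WT replicate 1 or 3 or *puchi-1* replicate 2 (up to 0.0647).

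Regulators that rise in the WT and were above the level of the WT at 18 hpg included *MNP*, a GATA factor of shoot and embryo patterning. It had 0.626, 0.805, and 1.16 CPM in the WT against 3.22, 4.05, and 3.77 CPM (log2FC = 2.08, standard error 0.36, adjusted p = 0.00303). *SAP* (*STERILE APETALA*), which controls organ size, went from 0.287, 0.191, and 0.416 CPM to 1.88, 2.69, and 2.07 CPM (log2FC = 2.88, adjusted p = 0.00539). *IQD16* and *IQD6*, which encode calmodulin-binding proteins, had a log2FC of 2.32 and 1.24 (adjusted p = 0.0105 and 0.0058). *TLP8*, a tubby-like gene, had 2.01, 3.22, and 3.35 CPM against 10.5, 10.2, and 10.7 CPM (log2FC = 1.87, adjusted p = 0.0125). It averaged 7.96 CPM in *puchi-1* at 18 hpg and 4.05 CPM in the WT at 24 hpg. The libraries of the groups did not overlap in these 5 genes, as the rule that named them required. Of all genes tested, 31.5% met that condition. Without both March libraries *MNP*, *SAP*, and *IQD6* did not pass (0.106, 0.124, and 0.0923). *IQD16* lost its pass without WT replicate 2 or 3 (up to 0.0692), and *TLP8* without WT replicate 1 (0.0875).

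*LEP* and *EXPA1* were not among the genes called along the WT course. *LEP*, an AP2/ERF gene named for its effect on the petiole, had 6.92, 5.72, and 5.87 CPM against 14.7, 19.2, and 15.9 CPM (log2FC = 1.43, adjusted p = 0.00905, lost without WT replicate 2 or 3 or *puchi-1* replicate 2, up to 0.0562). *EXPA1*, a wall-loosening expansin that acts in the first founder cell divisions, had 7.65, 9.17, and 16.9 CPM against 48.9, 41.1, and 55.6 CPM (log2FC = 2.11, standard error 0.39, adjusted p = 0.00561, and 0.104 without both March libraries). Its lowest *puchi-1* library at 24 hpg was above the highest WT bend library of any time, 25.5 CPM. *EXPA1* averaged 43.1 CPM in *puchi-1* at 18 hpg and 19.3 CPM in the WT at 24 hpg. *GATA23*, a marker of founder cell specification, had 0.992, 0.318, and 0.723 CPM against 1.02, 2.08, and 1.09 CPM and did not pass (log2FC = 1.05, standard error 0.89, adjusted p = 0.562). *LBD33*, a partner of LBD18 in lateral root initiation, passed at a low level (log2FC = 1.83, adjusted p = 0.0421, lost without any of 5 libraries, all but WT replicate 1, up to 0.179).

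Cytokinin genes were represented by an enzyme of breakdown and an enzyme of activation. *CKX6* (AT3G63440), a cytokinin oxidase gene, had 7.39, 6.61, and 4.97 CPM in the WT at 18 hpg against 16.3, 17, and 14.3 CPM for the mutant at 24 hpg (log2FC = 1.33, standard error 0.17, adjusted p = 6.58e-05). *LOG3*, which releases active cytokinin, had 0.757, 1.14, and 1.25 CPM against 3.56, 3.83, and 4.63 CPM (log2FC = 1.93, adjusted p = 0.00852, and 0.0696 without WT replicate 1). These were the 2 of 24 genes of synthesis, breakdown, and response that passed, both higher, and the median of the list was 0.04. The type-A response regulators *ARR5* and *ARR7*, readouts of cytokinin signalling, had a log2FC of -0.40 and 0.15 (adjusted p = 0.399 and 0.9).

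Genes of auxin response and transport were higher where they passed, except *AUX1*. Of 29 Aux/IAA genes, which encode repressors that auxin induces, 6 passed, all higher, with a median of 0.25 for the list. *IAA13* (AT2G33310) had 44.5, 45.9, and 46.6 CPM in the WT at 18 hpg against 74.3, 81.3, and 81.6 CPM for the mutant at 24 hpg (log2FC = 0.79, standard error 0.08, adjusted p = 1.13e-06). *IAA30* had 0.835, 1.08, and 1.36 CPM against 3.72, 3.42, and 4.2 CPM (log2FC = 1.79, standard error 0.33, adjusted p = 0.00482, and 0.103 without both March libraries) and was the 1 member called. *IAA2* and *IAA9* passed at a log2FC of 0.67 and 0.50 (adjusted p = 0.00843 and 0.00807), as did *IAA3* and *IAA4* at 0.57 and 0.67 (0.0298 and 0.019). *IAA14*, which restrains founder cell formation, and *IAA19* were at 0.13 and 0.00 (adjusted p = 0.7 and 1). *IAA2* lost its pass without WT replicate 1 (0.0682) and *IAA9* without WT replicate 2 or *puchi-1* replicate 2 (up to 0.0552).

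Of 6 *GH3* genes, whose products conjugate auxin to amino acids, 2 passed, both higher (median of the list 0.74). *GH3.3* (AT2G23170) had 24.0, 13.1, and 34.3 CPM in the WT at 18 hpg against 87.0, 88.8, and 105.0 CPM for the mutant at 24 hpg (log2FC = 1.98, standard error 0.48, adjusted p = 0.0358). In *puchi-1* at 18 hpg it had 49.6, 28.4, and 54.0 CPM, and the step of 1.09 from there to 24 hpg did not pass. *GH3.5* had 35.5, 36.1, and 43.7 CPM against 83.4, 73.1, and 101.0 CPM (log2FC = 1.16, adjusted p = 0.0136). *GH3.3* lost its pass without any 1 of the 6 libraries (up to 0.154) and *GH3.5* without WT replicate 1 or 2 or *puchi-1* replicate 3 (up to 0.087).

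The window of *GH3.3* is shown because it holds TGTCTC, the classic auxin response element, which is marked by capitals. TGTCTC was found in 10 of 57 windows of genes called higher (17.5%) and 6 of 61 of genes called lower (9.84%), beside 11% of all windows. The window spans chr2:9866563-9866812 (minus strand).
GH3.3: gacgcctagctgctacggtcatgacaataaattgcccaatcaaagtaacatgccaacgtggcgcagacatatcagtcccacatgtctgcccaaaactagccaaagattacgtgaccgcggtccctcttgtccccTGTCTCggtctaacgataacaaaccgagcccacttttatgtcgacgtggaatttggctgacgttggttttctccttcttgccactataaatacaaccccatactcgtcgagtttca
The remaining motifs were in few windows. TGTCGG, another auxin response element, was in 3.51% of the higher, 3.28% of the lower, and 4.4% of all windows, and ACTCTAC, read by SHI/STY proteins, in 1.75%, 1.64%, and 1.72%. GGTCCCAT was in 0 of the called windows and 0.425% of all.

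Among 14 auxin transport genes 3 passed higher and 1 lower, with a median of 0.51. *PIN3* (AT1G70940), an efflux carrier gene, had 64.9, 66.4, and 66.5 CPM in the WT at 18 hpg against 111.0, 111.0, and 108.0 CPM for the mutant at 24 hpg (log2FC = 0.73, standard error 0.09, adjusted p = 2.85e-05). It averaged 99.7 CPM in *puchi-1* at 18 hpg and 64.6 CPM in the WT at 24 hpg. The influx carrier gene *AUX1* went the other way, with 145.0, 142.0, and 152.0 CPM against 80.8, 87.8, and 77.8 CPM (log2FC = -0.83, standard error 0.13, adjusted p = 0.000939), whereas its relative *LAX2* was higher (log2FC = 1.34, adjusted p = 0.0488). In these 3 genes the libraries of the groups did not overlap, as in 31.5% of all genes tested. *LAX2* lost its pass without any 1 of the 6 (up to 0.172) and in 11 of 18 alternatives in all, among them RLE scaling and no filter.

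**Figure D4:**
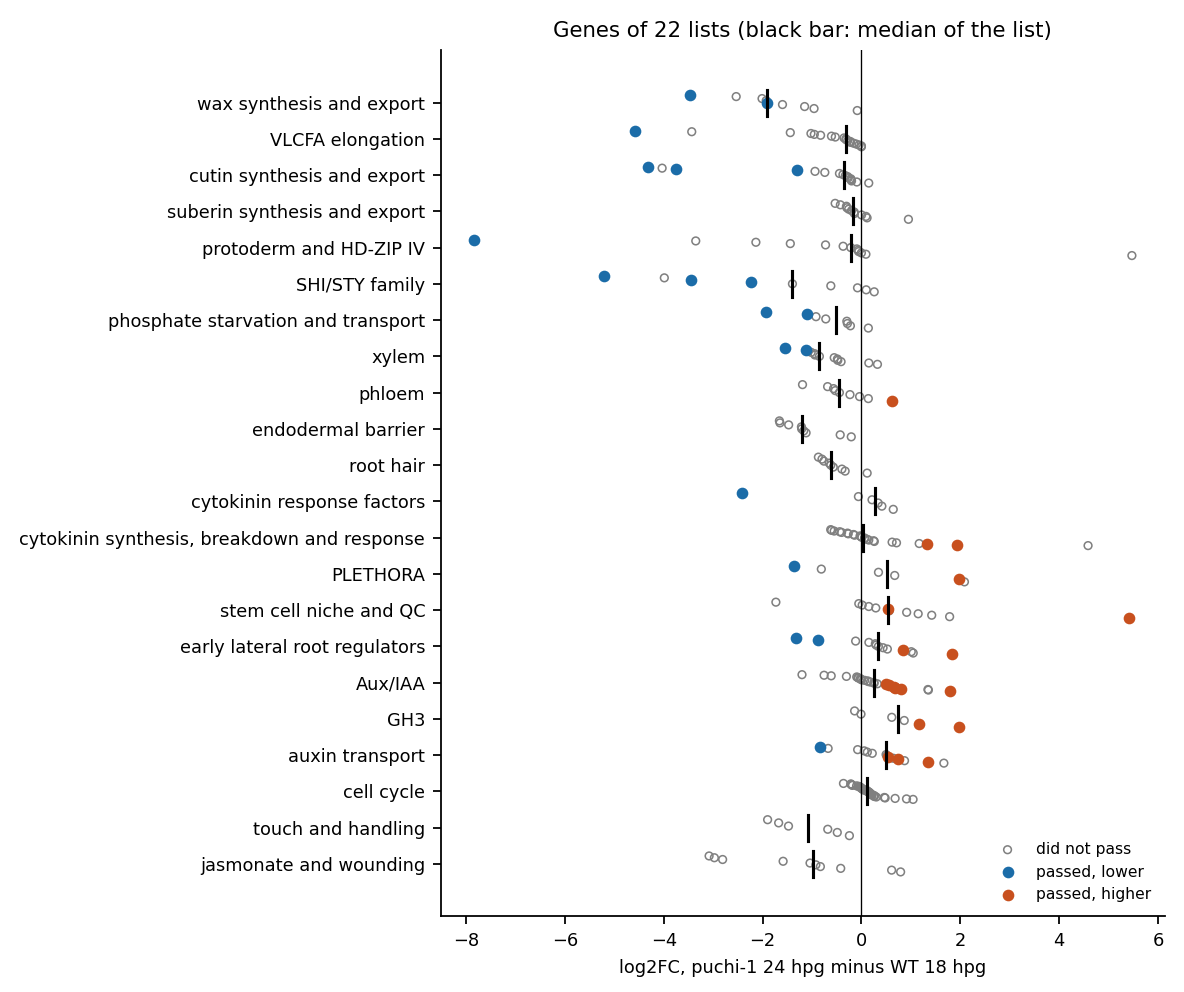
The log2FC of *puchi-1* 24 hpg relative to WT 18 hpg (x axis) of each tested gene of 22 lists (rows), with the median of the list as a black bar. Filled points passed an adjusted p under 0.05 (orange higher, blue lower) and open points did not, with lower members in the wax, cutin, SHI/STY, and xylem lists and higher members in the Aux/IAA and *GH3* lists.

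Of 13 xylem genes 2 passed, *COBL4* and *CESA8*, both lower in *puchi-1* at 24 hpg than in the WT at 18 hpg, and the median was -0.85. *COBL4*, which acts in secondary cell wall cellulose, had 32.8, 22.9, and 29.0 CPM in the WT at 18 hpg against 9.23, 11.5, and 8.24 CPM for the mutant at 24 hpg (log2FC = -1.55, standard error 0.33, adjusted p = 0.0148). The WT at 24 hpg had 8.23, 11.6, and 13.3 CPM, a range that overlapped the mutant (log2FC = -0.20, adjusted p = 0.809). *CESA8*, a cellulose synthase subunit of secondary walls, had a log2FC of -1.13 (adjusted p = 0.0477) and of -0.08 relative to the WT at 24 hpg (adjusted p = 0.925). *FLP*, a MYB gene that acts in stomata and lateral root initiation, was lower as well, with 44.5, 39.6, and 31.5 CPM against 16.7, 16.6, and 12.8 CPM (log2FC = -1.32, adjusted p = 0.0112). *COBL4* lost its pass without WT replicate 1 or 3 or *puchi-1* replicate 1 or 3 (up to 0.0947), *FLP* without WT replicate 1 or *puchi-1* replicate 3 (up to 0.0832), and *CESA8* without any 1 of the 6 (up to 0.181) and with no filter on low counts. In the phloem list 1 of 9 genes passed, *OPS*, a protophloem regulator, which was higher (log2FC = 0.63, adjusted p = 0.0457, lost without any 1 of the 6, up to 0.151, and with RLE scaling or no filter). The median of that list was -0.45, with 7 genes below 0 and 2 above.

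Markers of the endodermal barrier, root hairs, root cap, and shoot photosynthesis did not pass the test. Most of those outside the photosynthesis list had a log2FC below 0. The 9 genes of the endodermal barrier, such as *CASP1* and *ESB1* of the Casparian strip, had a median log2FC of -1.21, and all 9 were below 0. Their summed level was 209 to 281 CPM in the WT at 18 hpg and 116 to 137 CPM in *puchi-1* at 24 hpg, with 0 of the 9 at 0 reads in a whole group. *ESB1* had 88.1, 56.2, and 65.6 CPM against 28.4, 28.6, and 18.7 CPM (log2FC = -1.47, standard error 0.95, adjusted p = 0.429), and it passed in 5 of 18 alternatives, over which the adjusted p ranged from 7.51e-09 to 0.707. The 9 root hair genes summed to 96.4 to 179 CPM in the WT and 61.9 to 112 CPM in *puchi-1* (median log2FC -0.62, 0 passed), and the 6 root cap genes to 20.8 to 28.3 and 16.7 to 20.3 CPM (0 passed). Relative to the WT at 24 hpg the medians of the barrier and root hair lists were 0.54 and 0.79. The 7 genes of shoot photosynthesis summed to 84.7 to 205 CPM and 96.3 to 274 CPM, the March library being the highest in both groups for *CAB1* (96.7 and 151.0 CPM). The part of these markers in the other results was not tested.

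*SADHU3-2* (AT3G42658, chromosome 3, 14749400 to 14750294), a locus of a retroelement family, had the lowest p of all genes. It was at 0.0522, 0.254, and 0.241 CPM in the WT at 18 hpg against 73.0, 76.1, and 70.6 CPM for the mutant at 24 hpg (log2FC = 8.58, standard error 0.41, adjusted p = 8.95e-14). The highest of the 15 WT bend libraries had 0.706 CPM, and *puchi-1* at 18 hpg had 70.7, 74.7, and 65.9 CPM. The level thus differed with genotype at both times and hardly between the times.

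In 14 of the 30 lists described 0 genes passed (edgeR). They include the cell cycle list, whose 34 genes of DNA replication and mitosis had a median log2FC of 0.12, with *CDC20.1* at 39.1, 45.5, and 36.5 CPM against 46.0, 52.4, and 46.8 CPM (log2FC = 0.26, adjusted p = 0.543). Clock genes that peak in the morning and in the evening had a median of -0.26 and 0.00, and *TOC1* had 96.6, 95.5, and 104.0 CPM against 94.2, 90.2, and 96.9 CPM. The touch and the jasmonate lists had medians of -1.08 and -0.98, but the libraries of the groups overlapped. *WRKY33* was at 38.5, 286.0, and 377.0 CPM in the WT and 119.0, 26, and 108.0 CPM in *puchi-1*, with the lowest value of each group in its March library (log2FC = -1.47, adjusted p = 0.304). *AOS*, an enzyme of jasmonate synthesis, had the same order, with 27.5, 143.0, and 224.0 CPM against 81.3, 28.4, and 82.5 CPM.

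The levels of *puchi-1* at 24 hpg were also set beside the 15 WT bend libraries of 12 to 36 hpg. For 490 genes (1.89%) the 3 mutant libraries lay outside all 15, 306 above (1.18%) and 184 below (0.711%). Of the 118 called genes 31 lay above and 29 below the whole WT range, and 58 lay within it. Among the named genes that passed, *PHT2;1*, *CER3*, *PRP4*, *CRF1*, *PLT5*, *SRS5*, *STY2*, *SHI*, *DCR*, *EXLB1*, *PAP17*, and *LBD16* were below each WT bend library. *SADHU3-2*, *CKX6*, *IAA13*, *IAA30*, *IAA2*, *IAA9*, *PIN3*, *PLT1*, *GH3.3*, *GH3.5*, *EXPA1*, *LOG3*, *SAP*, *LEP*, *TLP8*, *IQD6*, *SHR*, and *PUCHI* were above each. The xylem genes *COBL4* and *CESA8* were within the range, as was *FLP* of the early lateral root list.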

How the data were processed

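RNA of 36 bulk libraries had been sequenced. Per the labels and the Methods, the authors trimmed reads with bcl2fastq (version 2.20), aligned them to TAIR10.1 with TopHat2 (2.1.1, on Bowtie2 2.3.5.1), and summed them by gene and strand in featureCounts (2.0.0). Raw counts were deposited for 37973 rows, 7716 of them at 0 in every library. Its 87 rows with no locus tag carry a gene ID, held 0.07 to 0.362% of the counts and were kept. Symbols come from the RefSeq gene table.

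Genes with at least 15 reads over 36 libraries were kept (25889). One edgeR (version 4.0.16, R version 4.3.3) quasi-likelihood model with TMM scaling covered 12 groups (24 residual degrees of freedom, biological coefficient of variation 0.268), so companion values share it. CPM are TMM-scaled, and log2 CPM used a prior count of 2. Each group has 3 biological replicates, and totals ranged from 31.7 to 121.6 M. The test was also run on simulated counts with known changes. It called 40 and 41 of 50 genes at a log2FC of 1.5 and -1.5, and 1 of 25689 unchanged genes. The simulated libraries were independent and the changed genes were above 1 CPM. This run therefore cannot speak to the shared deviation of the March libraries or to genes of low count. DESeq2 (version 1.42.0), other filters, scalings, subsets, a replicate block, and months were alternatives.

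The comparison, its 30 lists (354 entries, 340 tested), and the tests were chosen with earlier results of these data known. Named genes were the 12 higher and 12 lower called genes of lowest p with a symbol, no overlap, and a mean of at least 1 CPM in a group, up to 4 passing members of each list, or the 2 of highest level where none passed, and 13 genes of prior interest. *IAA3*, *IAA4*, and other list members given by value only fall outside this rule and were chosen after their values were seen. DNA sequences were read from TAIR10.1 (RefSeq) for 25860 genes.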

Additional observations from a re-analysis of the deposited data

How the results depend on the processing

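The number of called genes differed with the tool, the libraries in the fit, and the covariates, and the cause was not tested. It was 118 (57 higher, 61 lower), against 279 (129 and 150) with DESeq2 on 12 groups, 641 (233 and 408) with DESeq2 on the 6 libraries, 346 (161 and 185) with edgeR on the 6, 477 (206 and 271) on the 30 bend libraries, 383 (159 and 224) on the 12 libraries of 18 and 24 hpg, and 723 (293 and 430) with the month of the title as a covariate. Without 1 library it was 48 to 65 (21 to 33 higher, 23 to 41 lower). Without both March libraries, an alternative chosen after seeing the data, it was 18 (6 and 12), of which 17 were among the 118. With March or not as a covariate, also chosen later, it was 116, of which 110 were shared. The month covariate treated undated titles as a month of their own, so it cannot adjust for the unknown dates of *puchi-1* 24 hpg replicates 1 and 3.

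The numbers of the replicates did not pair the libraries (correlation of deviations -0.43, -0.51, and 0.53 for numbers 1 to 3), and with the replicate block 130 genes were called, 114 of them among the 118. *LAX2* and *CESA8* did not pass with the block or with the March covariate (adjusted p = 0.0535 and 0.0509 for the latter). RLE scaling, no filter, and filterByExpr gave 108, 98, and 139. Of the 47 named genes that passed, 20 passed in all 6 fits without 1 library and 11 without both March libraries. All 47 kept their direction in these fits and between the 2 March libraries alone, which belong to the same data. Where the groups did not overlap, as in all 118 called genes, this direction was fixed in advance. Keeping it adds no support there. The medians of rising and falling genes, 0.32 and -0.50, were 0.26 to 0.38 and -0.54 to -0.45 without 1 library, and 0.35 and -0.46 without both March libraries. Depth limits *PDF1*, *WIP4*, *ATML1*, and *PDF2*, which had 3 reads or fewer in a group. Other genes, such as *STY2* and *BDG*, were also near the floor in *puchi-1* at 24 hpg (*BDG* at a mean of 0.0514 CPM), so that the size of their log2FC is uncertain.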

Other observations

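The genes above cover 16 lists in which 1 or more members passed, and further called genes outside the lists act in the cell wall and in growth. They were chosen for their names after their values were seen. *EXPA15*, another expansin gene, was at 22.5 CPM in the WT at 18 hpg and 83.7 CPM in *puchi-1* at 24 hpg on average (log2FC = 1.9, adjusted p = 0.0393, edgeR), and *GH9B13*, a glycosyl hydrolase gene, at 16.5 and 47.1 CPM (log2FC = 1.51, adjusted p = 0.0143). *XTH24*, a xyloglucan endotransglucosylase gene, was at 160 and 75.7 CPM (log2FC = -1.08, adjusted p = 0.0288). Among small signalling peptides, *RGF1*, which acts through PLETHORA levels in the root meristem, was at 0.0676 and 1.31 CPM (log2FC = 4.21, adjusted p = 0.0126), and *CLE42* at 0.68 and 1.9 CPM (log2FC = 1.49, adjusted p = 0.043). Of the 6 fits without 1 library, *EXPA15* and *CLE42* were called in 0, *XTH24* in 1, *GH9B13* in 2, and *RGF1* in 3.

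*MYB88*, the closest relative of *FLP*, was lower together with it, at 88.5 and 37.6 CPM (log2FC = -1.23, adjusted p = 0.0126). Whether reads of such similar genes were counted for the right one was not tested. *CYP78A10* was called higher although it fell in the WT course (0.232 and 6.28 CPM, log2FC = 4.73, adjusted p = 0.0231). It was called in 0 of the 6 fits without 1 library, and *MYB88* in 3. A term for the difference of the step from 18 to 24 hpg between the genotypes passed for 0 genes with edgeR (1103 had an unadjusted p under 0.05), so that no gene is shown to change over these 6 h in one genotype differently from the other.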
